A study of Sus scrofa with 8 samples.

Results

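Fibroblast-only regions inside genes are stretches of the pig genome that carried the histone mark H3K27ac in both libraries of porcine embryonic fibroblasts (pEF) and in neither library of pig pre-gastrulation epiblast stem cells (pgEpiSC), and that lie within a protein-coding gene, away from its ends. There were 7051 of them among 98547 regions on chromosomes 1 to 18. They were chosen by the presence of the mark, so the difference between the cell types at these regions is their definition and not a finding, and it was not tested. The study profiled H3K27ac by chromatin immunoprecipitation and sequencing (ChIP-seq) in 2 groups of 2 libraries: pgEpiSC 1 and pgEpiSC 4, from stem cells labelled with embryonic epiblast of day 10, and pEF 1 and pEF 2, from fibroblasts labelled with the fetus of day 30. No treatment or genetic change is given for either group. Each H3K27ac library had an input library, which is DNA sequenced without the antibody. The labels do not say whether the libraries of a cell type share a line, an animal or a culture, so any spread between them may be technical, and each value below is given for both libraries.

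H3K27ac is an acetylation of histone H3 that marks active promoters and active enhancers. Enhancers are short stretches of DNA that bind transcription factors and raise the transcription of a gene, which may be the gene they lie in or another one nearby. Much of the enhancer activity that sets one cell type apart from another lies away from promoters, and introns of long genes hold a large part of it.

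The authors deposited a list of islands for each H3K27ac library, an island being a run of 200 bp windows in which ChIP reads cluster. Islands of the 4 lists that overlapped were merged into regions. A region was kept when it was narrower than 20 kb, had an island from both pEF libraries and from neither pgEpiSC library, overlapped the body of a protein-coding gene, and stayed clear of 2 kb on either side of the ends of any gene. The pEF lists held 42444995 and 46383051 ChIP reads and the pgEpiSC lists 29679982 and 38230571. At gene ends, the collagen genes COL1A2 and COL3A1 and the mesenchymal factor gene TWIST1 had islands in the pEF libraries only, and the pluripotency genes LIN28A and OTX2 in the pgEpiSC libraries only. COL1A1, POU5F1 and SOX2 had islands in all 4 libraries. Since the cells were profiled in bulk, fewer cells with the mark and less of the mark per cell cannot be told apart.

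The regions were short. Their median width was 4.0 kb, with quartiles of 2.8 and 5.8 kb, and 3.91% were between 12 and 20 kb wide. Within its islands a region held a median of 258 ChIP reads in pEF 1 and 279 in pEF 2, with quartiles of 147 and 495 and of 167 and 547.5. The fold over input, which is ChIP over input reads after the authors' scaling to library size, had a median of 3.02 in pEF 1 and 2.98 in pEF 2. Both libraries exceeded 2-fold at 5229 regions (74.2%), and in both the false discovery rate (FDR) of an island against input was under 1e-10 at 5804 regions (82.3%). The fold reached 33.0 in pEF 1 and 28.1 in pEF 2, at the same region, a stretch of chromosome 15 from 47787201 to 47794200 inside TACC1, a centrosomal coiled-coil gene picked out after its values were seen. Input was low there, with 46 reads over 4000 bp of island in pEF 1 and 124 over 7000 bp in pEF 2. The median input over all regions was 36.4 and 34.6 reads per kb. At 2 regions the fold was under 1 in a library, so an island had been called where ChIP reads did not exceed input. From 2 kb up, wider regions had a higher fold. The median was 2.72 and 2.69 at the 2904 regions of 2 to 4 kb, and 4.57 and 4.77 at the 276 regions of 12 to 20 kb. The 477 regions narrower than 2 kb were apart from this order, at 3.08 and 2.83.

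The rule asks for an island of both pEF libraries in each region, so some overlap between them is built in, and the regions with an island in 1 pEF library are not in these counts. Within the 7051 regions, islands of the 2 libraries shared 23.2 Mb of the 34.1 Mb that either covered (67.9%). Of the regions, 6606 regions (93.7%) held 1 island from each. Signal density, as ChIP reads per kb of island scaled to 1e6 ChIP reads in all islands of the library, had a median of 1.93 in pEF 1 and 1.89 in pEF 2. It differed by less than 1.5-fold at 74.8% of the regions. Across the 7051 regions the log2 densities had a Pearson r of 0.65 and the log2 folds over input one of 0.59. These are descriptions across regions of 2 libraries, and each density is taken over the library's own islands, which differ in length. Density was more than 3-fold higher in pEF 1 at 20 regions and more than 3-fold higher in pEF 2 at 13.

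**Figure D1:**
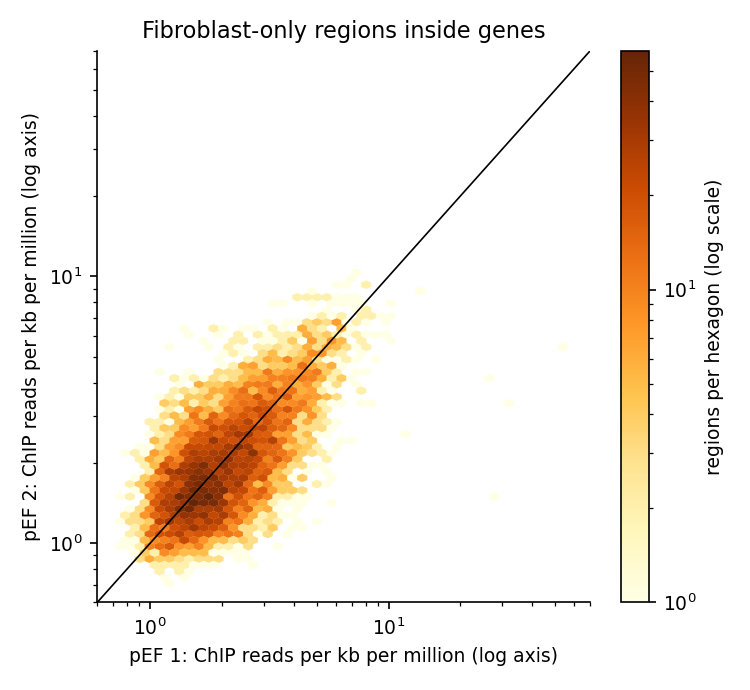
Density as ChIP reads per kb of island, scaled to 1e6 ChIP reads in islands, at the 7051 fibroblast-only regions inside genes, with pEF 1 on the horizontal and pEF 2 on the vertical axis, both logarithmic. Colour gives the number of regions in a hexagon, on a logarithmic scale, the line marks equal values, and a few regions lie far below it, with a far higher density in pEF 1 than in pEF 2.

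The 6 densest regions show what a high value can rest on. The densest was 400 bp wide, on chromosome 6 from 57080001 to 57080400 inside the uncharacterised gene LOC110261304. It held 914 ChIP and 61 input reads in pEF 1 but 98 and 45 in pEF 2. The next 3, inside ZNF37A, DPYSL3 and TMEM178A, were 400, 800 and 1000 bp wide and had 530, 911 and 468 ChIP reads in pEF 1 against 63, 78 and 71 in pEF 2. Scaled density in these 4 was 53.8, 31.2, 26.8 and 27.6 in pEF 1 and 5.28, 3.40, 4.20 and 1.53 in pEF 2, where the 90th percentile of all 7051 regions was 3.72. All 4 were thus far denser in pEF 1, and those in LOC110261304 and DPYSL3 were above that value in pEF 2 too. The fold over input of these 2 in pEF 2 was only 2.50 and 1.69, below the median of 2.98 over all 7051 regions. The other 2 were closer between the libraries. A region of 2.6 kb inside LOC106508100, on chromosome 2 from 66672801 to 66675400, held 1491 and 1062 ChIP reads, and one of 10.6 kb inside C1H9orf135, on chromosome 1 from 223301601 to 223312200, held 4428 and 3945. Their folds over input were 18.5 and 12.5, and 15.6 and 11.9.

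Other classes of region were set beside these as a description, without a test. The 6194 fibroblast-only regions between genes had the same median width of 4.0 kb and a median fold over input of 3.24 in pEF 1 and 3.22 in pEF 2. The 2290 fibroblast-only regions at gene ends were 4.4 kb wide in the median, with folds of 3.64 and 3.45. In both libraries the median at regions inside genes was thus the lowest of the 3 places. The quartiles of the 3 classes overlapped widely, and the class inside genes ran from 2.26 to 4.22 in pEF 1. The 4364 regions inside genes with islands in all 4 libraries had folds of 3.52 and 3.54 in the pEF libraries. The 9370 epiblast-only regions inside genes, the counterpart in the other cell type, were wider, at a median of 6.2 kb, and had folds of 1.69 in pgEpiSC 1 and 1.63 in pgEpiSC 4.

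**Figure D2:**
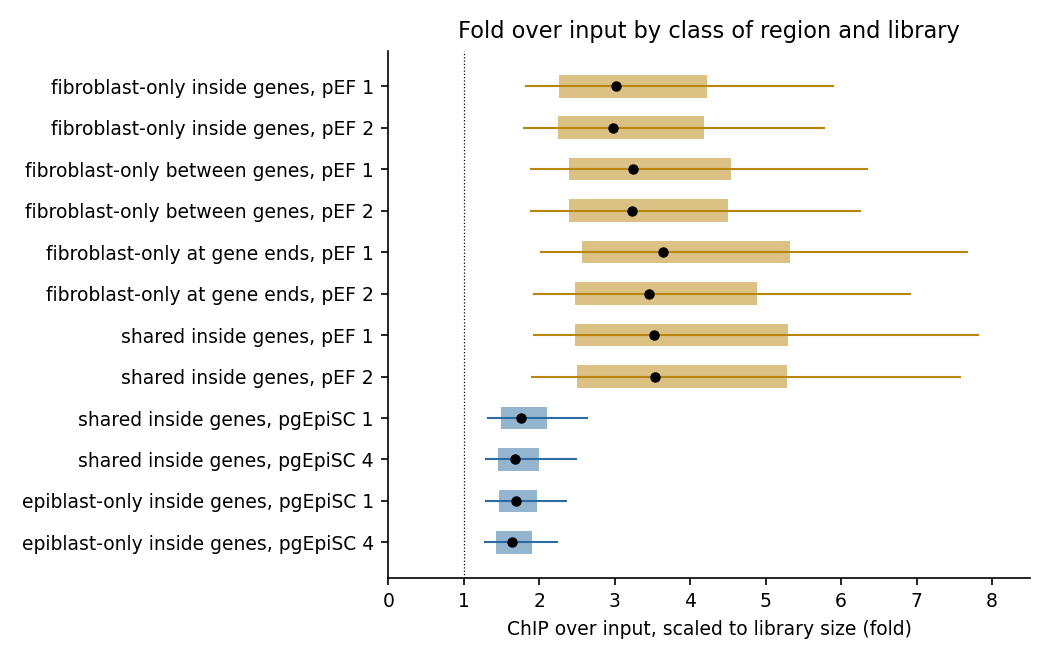
Fold of ChIP over input, scaled to library size, for 5 classes of region narrower than 20 kb, in each library that had islands in them by rule. Points are medians over regions, bars span the quartiles, lines run from the 10th to the 90th percentile, the dotted line marks a fold of 1, and the pEF medians (gold) lie above all pgEpiSC medians (blue).

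Absence of an island in pgEpiSC is not absence of reads, because the lists give no reads outside islands. Islands narrower than 20 kb had a 5th percentile of fold over input of 1.21 in pgEpiSC 1 and 1.16 in pgEpiSC 4, against 1.58 and 1.61 in pEF 1 and pEF 2. By fold, the pgEpiSC lists thus reached down to weaker enrichment than the pEF lists. By scaled density they did not reach as low. Its 5th percentile was 1.44 in pgEpiSC 1 and 1.48 in pgEpiSC 4, against 1.08 in both pEF libraries. The 10th percentile of density over the 7051 regions was 1.22 in pEF 1 and 1.19 in pEF 2. The rule on presence left out regions of 2 kinds. A further 1637 regions met every other condition but had an island in 1 pgEpiSC library, where its fold was 1.48 (547 regions, pgEpiSC 1) or 1.44 (1090 regions, pgEpiSC 4) in the median. The pEF folds at these 1637 regions were 3.22 and 3.20, and their median width was 6.0 kb. Another 5357 regions, narrower at a median of 2.2 kb and of lower fold, had an island in 1 pEF library and none elsewhere, with median folds of 2.22 (3223 in pEF 1) and 2.25 (2134 in pEF 2). With pEF 2 left out of the rule the number of regions rose from 7051 to 11498, and with pEF 1 left out to 10063.

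The limit on width removed few regions. The 4 widest inside it were 19.8 kb in PLA2G4A, 19.6 kb in CFDP1 and 19.4 kb in both FMN1 and AGBL1, with folds between 2.70 and 7.28. Just outside it were regions of 20 kb in GLIS3, AKAP2 and PLCB1 and of 20.4 kb in ABCB11, with folds between 2.83 and 7.496. In all 82 regions inside genes were 20 kb or wider, up to 98.6 kb, and their median folds were 5.28 and 5.24. Regions that cleared the nearest gene end by 2 to 3 kb (185) had median folds of 3.33 and 3.05, and those 1 to 2 kb from it (154), which the rule left out, had 3.13 and 3.09.

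Within genes the regions were spread much like the bases of the gene interior. The interior is the gene body without the 2 kb windows, and it spans 994 Mb. The midpoint of a fibroblast-only region lay a median of 32.4 kb from the nearest gene end, against 30.3 kb for all interior bases, 38.2 kb for epiblast-only regions and 32.8 kb for regions shared by all 4 libraries. Within 10 kb of a gene end lay 14.7% of the fibroblast-only regions and 22.0% of interior bases, and since a region has width, its midpoint cannot come as close as a base can. Beyond 100 kb lay 18.1% and 19.2%. The regions lay somewhat farther apart than epiblast-only regions inside genes, which were more numerous, at 9.43 against 7.10 per Mb of interior. The distances are not adjusted for number. The nearest other fibroblast-only region inside a gene was within 12 kb for 37.1% and within 50 kb for 63.3% of them, against 41.2% and 69.9% for epiblast-only regions. The median distance was 26.4 kb to the nearest region of all 4 libraries and 64.4 kb to the nearest epiblast-only region, of any place and width. A region with an island of any pgEpiSC library was closer, at a median of 9.4 kb, and within 5 kb for 35.0%. Per Mb of interior there were 7.10 regions over all chromosomes, from 5.53 on chromosome 12 to 8.40 on chromosome 13.

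The 7051 regions lay in 3259 host genes, 17.4% of the 18722 protein-coding genes in the table, and 68 regions lay in 2 overlapping genes. Hosts were long genes. Their median interior was 94.4 kb, against 23.7 kb over the 15611 genes that have any. The share of hosts rose from 9.14% of genes with 10 to 30 kb of interior to 30.1% at 30 to 100 kb, 54.6% at 100 to 300 kb and 78.2% above that. The number of regions per Mb did not keep rising and stood at 5.31, 7.61, 7.57 and 7.02 in these 4 classes. Most hosts (1864) held a single region and 66 held 10 or more. Of the 3259 hosts, 44.1% also held an epiblast-only region, and of the 3706 genes with an epiblast-only region, 38.8% also held a fibroblast-only one. The background share of genes with an epiblast-only region inside was 19.8%, over genes of every length. That share rose with length as well, so 44.1% cannot be read against 19.8% alone. It was 10.1% of genes with 10 to 30 kb of interior, 33.3% at 30 to 100 kb, 64.9% at 100 to 300 kb and 89.3% above that.

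MECOM held the most, 26 regions, and no epiblast-only region. It encodes a zinc finger transcription factor of the PRDM family, and its body runs over 583 kb of chromosome 13, from 107753207 to 108336136. The 26 regions covered 23.8% of its interior. They held between 80 and 2736 ChIP reads in pEF 1 and between 91 and 1932 in pEF 2, with medians of 355 and 263. The highest fold was at a region of 12.6 kb from 107919001 to 107931600, at 7.26 in pEF 1 and 5.58 in pEF 2. The lowest fold was 1.25 in pEF 1, from 108254601 to 108258600, and 1.54 in pEF 2, from 107799001 to 107806600. Regions of high and low fold lay side by side along the gene. At 14 of the 26 both libraries exceeded 2-fold. With islands of at least 2-fold enrichment only, MECOM held 17 regions.

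PLCB1 and PDE4D, genes of signalling enzymes, followed. PLCB1 encodes a phospholipase C that splits membrane phosphoinositides and held 25 regions over 738 kb of chromosome 17. PDE4D encodes a phosphodiesterase that degrades cyclic AMP and held 24 over 1509 kb of chromosome 16, while its gene ends had islands in the pgEpiSC libraries only. With reads summed over the regions of a gene, the folds over input were 4.31 and 4.20 in pEF 1 and pEF 2 for PLCB1, and 4.35 and 4.70 for PDE4D. The top region of PLCB1, 10 kb from 17558201 to 17568200, held 3661 and 2847 ChIP reads against 371 and 305 input reads, a fold of 12.9 and 10.7. In PDE4D the top region, 9.2 kb from 38303201 to 38312400, held 1728 and 2198 ChIP reads. PDE4D reached 38 regions when pEF 2 was left out of the rule.

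Regulators of transcription and RNA were among the 10 as well. RBMS3, an RNA-binding protein, and KLF12, a repressor of the Kruppel-like family, held 21 and 20 regions, and HDAC9, a class II histone deacetylase, held 18. The folds of their summed reads were 4.81 and 5.15 for RBMS3, 4.79 and 4.08 for KLF12, and 3.43 and 3.95 for HDAC9. The highest region of RBMS3, 12 kb on chromosome 13 from 15763601 to 15775600, had folds of 9.17 and 10.7 and lay 683 kb from the nearer end of the gene. HDAC9 held 29 regions when pEF 1 was left out.

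The other 4 were genes of adhesion, polarity, membrane traffic and ion channels. PARD3B, a cell polarity protein, held 20 regions, PTPRM, a receptor phosphatase that mediates cell adhesion, 16, SBF2, a myotubularin-related protein, 16, and KCNIP4, a potassium channel subunit, 17. In SBF2 a region of 6.6 kb on chromosome 2 from 49652801 to 49659400 had folds of 12.8 and 11.1. The top region of PTPRM, on chromosome 6 from 99876401 to 99884800, did not hold in both libraries to the same degree, with 345 ChIP reads in pEF 1 and 2340 in pEF 2. PARD3B held 13 regions with islands of at least 2-fold enrichment and 35 when pEF 2 was left out, when KCNIP4 held 28.

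**Figure D3:**
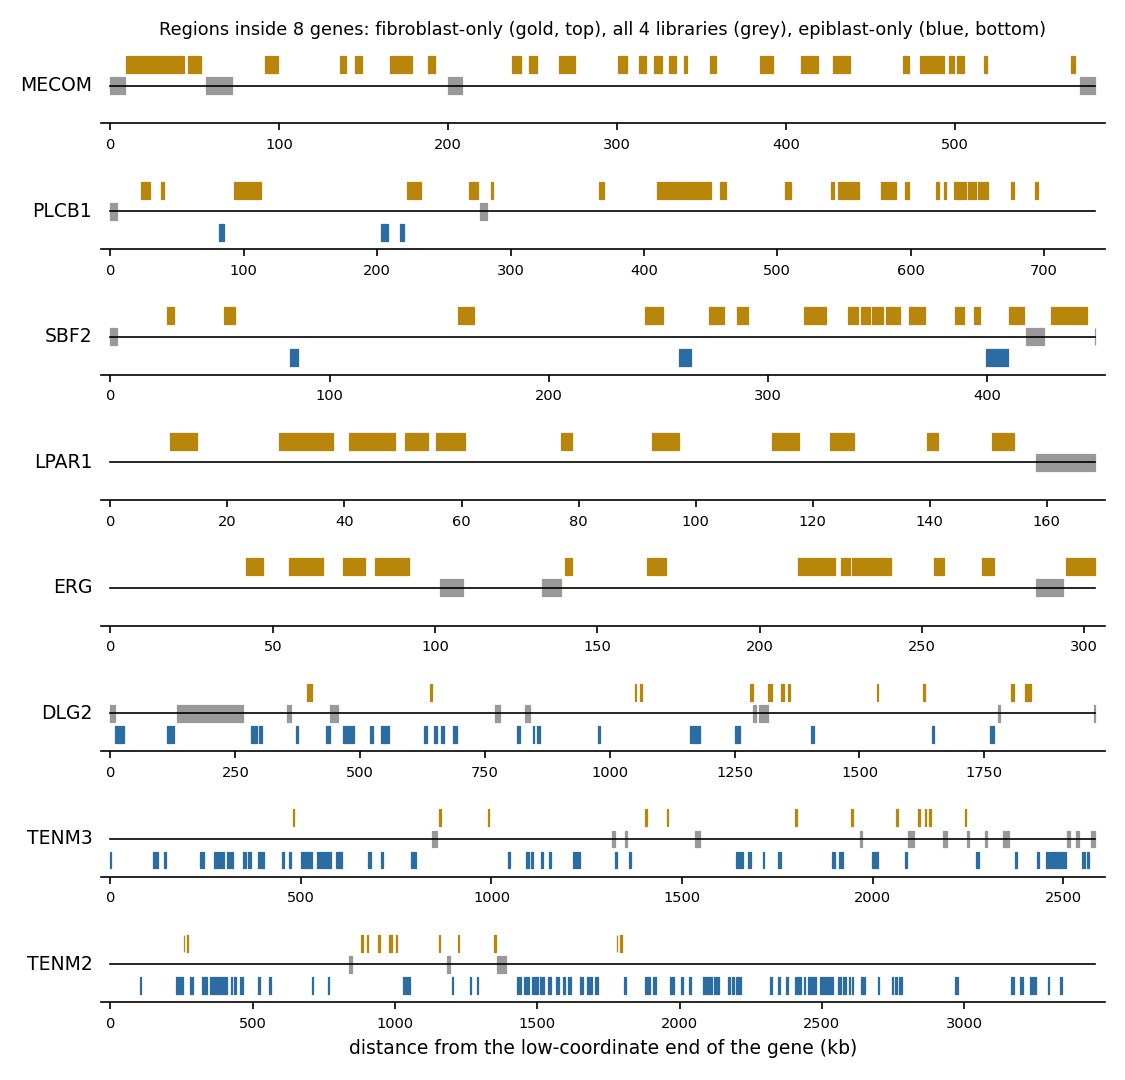
Regions inside 8 genes, drawn to scale as distance in kb from the end of the gene with the lower coordinate, with fibroblast-only regions in gold on top, regions with islands in all 4 libraries in grey on the line and epiblast-only regions in blue below. Regions of every width and at the gene ends are drawn, so a few gold bars are no members, and each gene has its own scale: MECOM, LPAR1 and ERG show gold bars without blue ones, while TENM2 and TENM3 show more blue than gold.

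By the share of the interior covered, short genes came first. IL1RL1 and IL33 were 2 of the top 4 among genes with at least 20 kb of interior. IL33 encodes an alarmin cytokine that nuclei of stromal and barrier cells store, and IL1RL1 encodes its receptor. Fibroblast-only regions covered 72.5% of the interior of IL1RL1 and 58.7% of that of IL33, in 2 regions each. The folds over input of their summed reads were 5.83 and 7.29 for IL1RL1, on chromosome 3, and 9.98 and 8.17 for IL33, on chromosome 1. AREL1, a ubiquitin ligase gene, and EPDR1, an ependymin-related gene, had 64.5% and 56.6% covered, also in 2 regions each. None of these 4 genes held an epiblast-only region.

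Some genes held many regions of both kinds. DLG2, a scaffold protein of synapses, held 14 fibroblast-only and 22 epiblast-only regions. TENM2 and TENM3, teneurin adhesion receptors of neurons, held 13 against 72 and 12 against 43. MACROD2, an enzyme that removes ADP-ribose, held 12 against 15. The bodies of these 4 genes measure between 1971 and 3460 kb. Regions per Mb were 3.78 in TENM2, 4.67 in TENM3 and 5.88 in MACROD2, below the 7.09 of all protein-coding genes. DLG2, at 7.21, was near it. In TENM2 the 13 regions held 165 to 1365 ChIP reads in pEF 1 and 144 to 1490 in pEF 2, with median folds of 3.35 and 3.47. By rule the 2 kinds cannot overlap, and regions with islands in all 4 libraries lay inside these genes too, 6 in DLG2, 2 in TENM2, 11 in TENM3 and 3 in MACROD2. By contrast, 21 of the 66 genes with 10 or more fibroblast-only regions held no epiblast-only region, while 45 (68.2%) did. The median interior of the 66 was 545 kb. Of all genes with at least 300 kb of interior, 89.3% held an epiblast-only region. Among the 21, those with the most fibroblast-only regions beside MECOM were SUGCT (15), PCDH7 (15), MTERF1 (14) and ADAMTSL3 (13). All 4 were named after their values were seen. DLC1 and ERG, with 12 each, were among those that followed.

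The hosts were then read by function, with 14 lists of genes whose 410 matched members are set against all protein-coding genes. Of all genes 17.4% were hosts, with 7.09 regions per Mb of interior when a region is counted once for each gene it lies in. No test was made, and since listed genes differ in length the regions per Mb are the fairer number. The epiblast-only values rest on weak islands: when islands under 2-fold were dropped, epiblast-only regions inside genes went from 9370 to 1140 and fibroblast-only ones from 7051 to 9405, and the lists' epiblast-only values were not recomputed.

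Genes of the actin cytoskeleton and focal adhesions stood highest. Of 54 genes 25 were hosts, with 113 regions and 14.8 per Mb, against 24 epiblast-only regions or 3.15 per Mb. TLN2, a talin that ties integrins to actin, held 15 regions, whose summed reads gave folds of 4.30 and 4.70. DLC1 held 12, with 14398 and 12456 ChIP reads and folds of 4.86 and 4.57. ARHGAP24, which acts on Rac, held 11 with folds of 3.24 and 2.91, and its gene ends had islands in the pgEpiSC libraries only. ITGA1 and ITGA11, collagen-binding integrin chains named after their values were seen, held 7 and 6.

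Mesenchymal transcription factors were hosts in 24 of 49 cases, with 90 regions and 12.7 per Mb, against 8.30 epiblast-only regions per Mb. OSR1 held 9 regions in a body that the gene table gives as 397 kb, and RUNX1 and ZEB1 held 8 each. The folds were 5.35 and 5.59 for OSR1, 3.15 and 2.59 for RUNX1, and 2.61 and 3.45 for ZEB1, a repressor of epithelial genes. RUNX1 and ZEB1 held no epiblast-only region and OSR1 held 1. The 8 regions of ZEB1 covered 33.7% of its interior. The HOX and AP-1 lists had few hosts and little interior, and their regions per Mb, 10.2 and 8.72, were above the 7.09 of all genes. HOX genes are short, with 0.098 Mb of interior in all, and 1 of 36 was a host, HOXB3, with 54 and 170 ChIP reads. In the AP-1, TEAD and YAP list 3 of 26 genes were hosts, of which WWTR1, the coactivator TAZ, held 6 regions with folds of 3.53 and 3.27, and AMOTL1 and AXL held 1 each. With islands of at least 2-fold enrichment the list had 5 hosts.

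Receptors and signalling genes of fibroblasts gave 19 hosts of 53, with 48 regions and 9.24 per Mb. LPAR1, a receptor for lysophosphatidic acid, held the most of the list, with 11 regions in 168 kb of chromosome 1, from 251811583 to 251979828. Its regions covered 31.1% of the interior, at folds of 3.82 and 3.68, and it held no epiblast-only region. NRP1, a coreceptor for semaphorins and VEGF, held 6 regions and DDR2, a collagen-activated receptor kinase, held 4. The extracellular matrix list had 13 hosts of 34 and 24 regions. Its 7.42 regions per Mb were near the 7.09 of all genes, while its 2.16 epiblast-only regions per Mb were below the 9.39 of all genes. COL5A2, a chain of type V collagen, held 5 regions with folds of 5.72 and 5.996. TNC, the matrix glycoprotein tenascin C, and FBN1, the microfibril protein fibrillin, held 3 each, with folds of 3.60 and 2.68 and of 2.19 and 2.95. The rule leaves out wide regions with islands in all 4 libraries that reach an end of these genes. They measured 66.2 kb at COL5A2, 88.2 kb at TNC and 119.6 kb at FBN1. The one at FBN1 held 624 and 765 reads in pgEpiSC 1 and pgEpiSC 4, and 19790 and 27919 in pEF 1 and pEF 2. The interior under such regions still counts in the regions per Mb.

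Lists of epithelia and of the epiblast had few regions per Mb, 0.740 and 2.28. Of 35 epithelial adhesion genes TJP1, which encodes ZO-1, was the 1 host, with a region of 113 and 147 ChIP reads and folds of 1.80 and 1.496, while 11 genes of the list held epiblast-only regions. With islands of at least 2-fold enrichment it had 5 hosts. Of 32 pluripotency and epiblast genes ETV5 and LIN28B were hosts, with 1 region each. No housekeeping gene of 16 was a host, in 0.125 Mb of interior.

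Markers of other cell types that the labels do not name were hosts too. Endothelial markers gave 4 hosts of 15, with 15 regions and 14.3 per Mb, and 12526 and 12829 ChIP reads in all. ERG, an ETS factor, held 12 of these regions, with folds of 6.99 and 5.75. FLT1 and PECAM1 held 1 each, and so did TEK, named after its values were seen. The folds were 8.57 and 5.40 at PECAM1, 3.04 and 4.89 at FLT1, and 2.24 and 3.51 at TEK. The other 11 genes of the list, CDH5, TIE1 and KDR among them, held none. At gene ends CDH5 and TIE1 had islands in the pgEpiSC libraries only and KDR in no library. Blood cell markers gave 3 hosts of 14 (RUNX3, LYN and IKZF1) with 5 regions, at 7.65 per Mb, and 1408 and 1539 ChIP reads. PTPRC, SPI1 and CD34 held none. Skeletal muscle markers gave 3 of 14 (MEF2C with 6 regions, TTN and RYR1 with 1 each), at 8.07 per Mb, and 3320 and 4100 reads. MYOD1, MYOG and PAX7 held none. The blood and muscle lists were thus near the 7.09 per Mb of all genes. Neural and neural crest markers gave 4 of 16, led by NCAM1 and NRXN3 with 3 regions each and NCAM2 with 2, at 2.27 per Mb, with 4338 and 2695 reads, while SOX1 and SOX10 held none. Chondrocyte and bone markers gave 4 of 16, led by SOX6 with 5, SOX5 with 4 and COL11A1 with 1, at 5.25 per Mb, with 4685 and 6116 reads, while SOX9, COL2A1 and ACAN held none. The markers without a region were named after their values were seen. The part that other cell types in the cultures have in these regions was not tested.

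**Figure D4:**
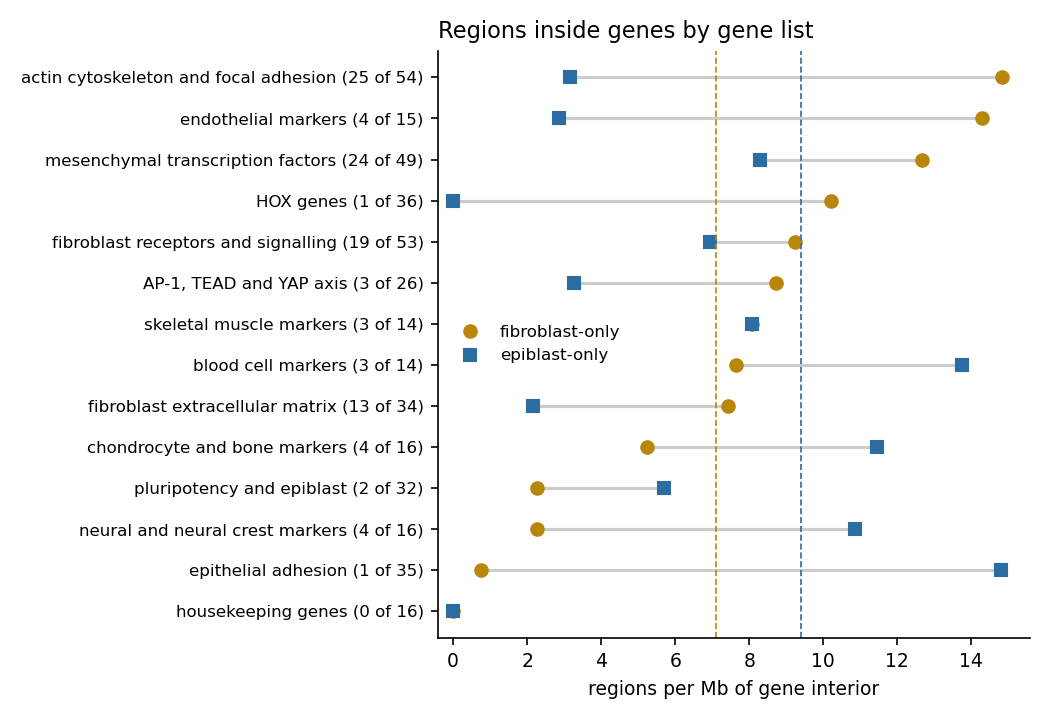
Fibroblast-only (gold points) and epiblast-only (blue squares) regions per Mb of gene interior for 14 gene lists, with the number of host genes of the matched genes in brackets. Dashed lines give the values over all protein-coding genes, 7.09 and 9.39, and the actin and focal adhesion list has the highest gold value at 14.8.

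The last comparison looks at the ends of the host genes, where promoters lie. These windows are not members, but the comparison is that of the rule, so its counts describe the hosts and support nothing. Regions with islands in all 4 libraries were tested by edgeR's quasi-likelihood test on ChIP reads inside islands, with Benjamini-Hochberg adjustment over all 20051 such regions and a threshold of 0.05. Over the 10389 of them at ends of protein-coding genes, 25.7% were higher in pEF and 19.6% in pgEpiSC. At ends of host genes 972 of 2735 were higher in pEF (35.5%), 369 in pgEpiSC (13.5%) and 1394 did not pass. The median log2 fold change of pEF over pgEpiSC was 0.46 at ends of hosts and 0.15 at all gene ends. By the number of fibroblast-only regions in the gene the median was 0.05 with 0, 0.37 with 1, 0.54 with 2 to 4, 0.66 with 5 to 9 and 1.40 with 10 or more, over 7654, 1583, 901, 205 and 46 regions. Without pgEpiSC 1 the counts at hosts were 390 and 153, and without pgEpiSC 4 they were 385 and 147, on the assumption that the lone library varies like the other group.

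**Figure D5:**
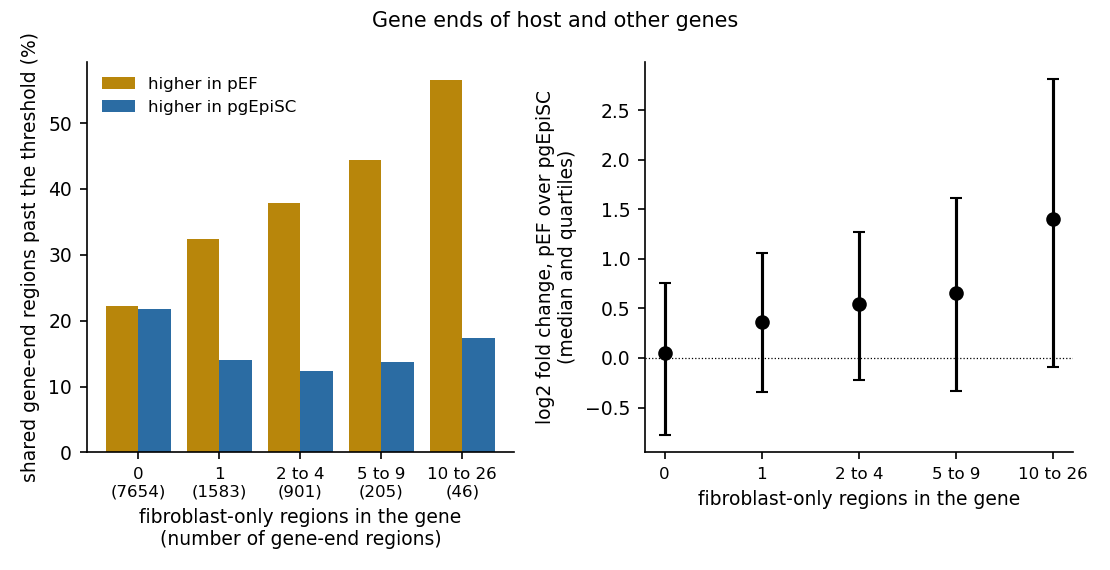
Regions with islands in all 4 libraries at ends of protein-coding genes, by how many fibroblast-only regions the gene holds. The left panel gives the percentage past an adjusted p of 0.05 in edgeR in each direction, with the number of regions in brackets, and the right panel the median log2 fold change of pEF over pgEpiSC with quartiles, from 0.05 with no such region to 1.40 with 10 or more.

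Named hosts differed at their ends. At MECOM an end region of 15.6 kb held 127 and 173 ChIP reads in pgEpiSC 1 and pgEpiSC 4 and 7790 and 6842 in pEF 1 and pEF 2, a log2 fold change of 5.20 ± 0.23 (SE, edgeR adjusted p = 0.00124). The region at its other end, of 16.8 kb, held 183, 287, 1318 and 2137 reads in the same order. Its log2 fold change was smaller, 2.47 ± 0.32 (edgeR adjusted p = 0.00419). At PLCB1 the 4 counts were 219, 207, 1711 and 1691, a log2 fold change of 2.56 ± 0.26 (edgeR adjusted p = 0.00234). ZEB1, with 108, 162, 4149 and 4166 reads, and LPAR1, with 141, 202, 1311 and 2417, were higher in pEF by 4.54 and 3.03 on the log2 scale (edgeR adjusted p = 0.00124 and 0.00334). In each of these the pEF libraries lay far above both pgEpiSC libraries. The reads are those inside each library's own islands, so covered length enters these differences as well as density. At TENM3 the order was the opposite, with 3496, 5146, 183 and 351 reads and a log2 fold change of -4.43 (edgeR adjusted p = 0.00168), and at RBMS3 the groups overlapped, with 589, 443, 97 and 605 reads (log2 fold change -1.03, edgeR adjusted p = 0.346).

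The largest differences at ends of hosts were shared with neighbouring genes or came with a difference in covered length. Toward pEF they were at TRDMT1, ETS1 and LOC102164776, with log2 fold changes of 6.62, 6.46 and 6.34. The region at TRDMT1 also holds an end of VIM, the gene of the mesenchymal filament protein vimentin, and it spanned 34.6 kb of island in pEF 1 and 34.2 kb in pEF 2, against 1.8 and 1.6 kb in pgEpiSC. ETS1, an ETS transcription factor, had 79.6 and 84.4 kb against 1.6 and 4.0 kb. Toward pgEpiSC, IGSF22, whose region also holds an end of PTPN5, and C8H4orf22 had log2 fold changes of -5.56 and -5.18. These 5 kept their direction and their side of the threshold in each other setting that gave a value. With islands of at least 2-fold enrichment IGSF22 and C8H4orf22 alone gave one.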

How the data were processed

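ChIP-seq islands of 4 H3K27ac libraries were analysed. The lists have no header. BWA 0.7.15, SAMtools 0.1.19 and SICER 1.1 are named per the submitters' processing notes, the 8 columns match a SICER islands summary, and the build, duplicate removal and filters are not given in the sources used here. Per the labels' protocols, fragments of 200 to 500 bp were sequenced from both ends with 150 bp reads. The deposited count columns hold ChIP and input reads per island. Another deposited column gives the fold, a ratio of ChIP to input reads scaled to library size. The remaining deposited columns are a p-value against input and its FDR, and as the FDR runs up to 1 in every list the islands were not filtered on it.

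Genes came from RefSeq for Sscrofa11.1. This table was used because, on 18 of 18 chromosomes, a larger share of gene ends than of points shifted by 20 kb fell in regions. It gives neither strand nor exons, and a genome sequence was not used here, so no sequence is shown and the planned motif count was not run. Where a symbol stood for 2 genes (17 symbols, B2M and NANOG among the listed), the first in the table was read with the lists. Coordinates are 1-based. Values per gene sum the reads of its regions. Merging used an overlap of at least 1 bp, and both steps passed 1260 checks on simulated data, 0 of them wrong. The count test used edgeR 4.0.16 (TMM factors of 1.08, 1.09, 0.933 and 0.904 for pgEpiSC 1, pgEpiSC 4, pEF 1 and pEF 2), with DESeq2 1.42.0 as an alternative, in R 4.3.3, and was tested on simulated counts. Its p-values measure only the spread between these libraries, and its reads are those inside each library's own islands. Python 3.11.15, numpy 2.4.6, pandas 2.3.3 and matplotlib 3.10.9 were used.

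The members and gene lists were chosen with earlier results of these data known. The genes named were the 10 with the most members, the hosts of the 6 densest members, up to 3 per list with the most members, the 4 with the largest share of the interior covered among genes with at least 20 kb of it, the 4 with the most of both kinds, and the 3 in either direction whose end regions had the largest significant log2 fold change. One of the last is not reported here.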

Additional observations from a re-analysis of the deposited data

How the results depend on the processing

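The number of fibroblast-only regions inside genes was 11498 without pEF 2, and 7873 to 11498 over the leave-one-out settings. Over the 7 other settings of the rule it was 5952 to 9405 and of host genes 2921 to 4059, all within 1.5 times 7051 and 3259. When islands under 2-fold were dropped there were 9405 regions, which overlapped 74.4% of the 7051, and epiblast-only regions inside genes fell in number from 9370 to 1140. The list genes that were hosts went from 106 to 125 under that filter, with a gene in 2 lists counted under both. The median fold over input moved by more than the spread of the 2 libraries under each alternative: in pEF 1 to 3.35 with an FDR under 1e-10, 2.96 under 10 kb of width and 3.82 as a width-weighted mean, and in pEF 2 to 3.30, 2.91 and 3.87. At ends of host genes, the filter on 2-fold islands gave 643 regions higher in pEF and 270 higher in pgEpiSC. Leaving out 1 library gave 385 to 952 higher in pEF and 147 to 407 higher in pgEpiSC. DESeq2, no filter on low counts and library sizes without TMM gave 972 to 1036 and 363 to 403. No paired analysis was possible because the cell types share only the library number 1. Reads outside islands are not in the lists, so weak acetylation of these regions in pgEpiSC cannot be measured here.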

Other observations

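Families of genes that share the root of their symbol, among those with at least 10 protein-coding members, differed in how many were hosts, against 17.4% of all protein-coding genes. Long genes are hosts more often, and the median interior of the 6 families below was 82.9 to 278 kb, against 15.95 kb over all genes. These families were picked out after their values were seen, and no test was made. Of 12 ITGA genes, the alpha chains of integrins, 6 were hosts, with 24 fibroblast-only regions, 20.6 per Mb of interior, and 6 epiblast-only regions. Of 25 PDE genes, the phosphodiesterases, 12 were hosts, with 81 regions and 14.1 per Mb, of which PDE4D held 24. The PDE genes held 50 epiblast-only regions. Unconventional and other myosins of the MYO root had 15 hosts of 24 and 9.13 regions per Mb, with 37 fibroblast-only against 28 epiblast-only regions. The CACNA genes, which encode calcium channel subunits, had 8 hosts of 12 but 4.43 regions per Mb, with 15 fibroblast-only against 51 epiblast-only regions. The DOCK genes, exchange factors for Rac and CDC42, had 7 of 10 and 6.69 per Mb, with 21 fibroblast-only against 33 epiblast-only regions. The classical and other cadherins of the CDH root had 9 of 22 and 4.48 per Mb, with 28 fibroblast-only against 73 epiblast-only regions. Over all genes there were 7.09 fibroblast-only regions per Mb, so of these 6 roots, ITGA and PDE were the only ones above 10 per Mb. Other roots were above 10 per Mb too, among them KLF at 22.6 and TBX at 19.4.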
